A study of Mus musculus with 9 samples.

Results

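Aqp3, Ache, Crat, Pdzk1ip1 and Prelp are 5 mouse genes that code for no globin and whose level lay above the empty-vector level in every library of cells given either form of GATA1. They were 5 of 27998 mouse gene rows in the count table, and all 5 were among the 9978 genes that passed the filter on low counts. They were picked on these same counts, because mutant and wildtype libraries both lay above the empty-vector libraries, so their rise over the empty vector is described here and not tested. All libraries came from G1E, an established line of mouse erythroid progenitors without functional Gata1, grown with stem cell factor and erythropoietin. The 3 groups were G1E cells infected with a viral vector carrying a human GATA1 mutant cDNA (GATA1_mut), the same vector with human wildtype GATA1 cDNA (GATA1_wt), and the empty vector (HMD), with 3 libraries each that the series calls biological replicates. The mutation, the time after infection and any selection of infected cells were not named in these sources, so a group may hold uninfected cells.

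GATA1 is the zinc-finger transcription factor that drives red cell maturation: it binds GATA motifs at globin, haem-synthesis and red cell membrane genes and activates them, while it represses Gata2 and Kit. Each of the 5 genes has a role outside globin synthesis. Aqp3 codes for an aquaglyceroporin, a membrane channel for water and glycerol that in human red cells carries the GIL blood group antigen. Ache codes for acetylcholinesterase, which splits acetylcholine and in human red cells sits on the outer membrane through a lipid anchor, where it carries the Yt blood group antigens. Crat codes for carnitine acetyltransferase, which moves acetyl groups between coenzyme A and carnitine in mitochondria and peroxisomes. Pdzk1ip1 codes for MAP17, a small membrane protein that binds PDZ-domain scaffolds and is best known from the kidney tubule. Prelp codes for a small leucine-rich repeat proteoglycan of connective tissue matrix that binds collagen and perlecan.

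Sequences just upstream of the start are shown because all 5 genes moved with a factor that binds DNA. RefSeq's promoter table (GRCm38.p6) matched 4 of the 5 members; Crat was the fifth. A window of 250 bases before the start was searched on both strands for the GATA motif (AGATAA, with T also taken as the first base and G as the last) and for the CACC-box pattern CCNCNCCC, the kind of site that Krüppel-like factors such as Klf1 bind. The sequences are written 5′ to 3′ in the direction of the gene, with matches to CCNCNCCC on either strand in capitals, and bases that the GENCODE annotation gives as exon were left out. For Ache, RefSeq places the start downstream of the first GENCODE start, so its window lies inside the gene as GENCODE annotates it.
Aqp3 (chr4:41098184-41098433, minus strand): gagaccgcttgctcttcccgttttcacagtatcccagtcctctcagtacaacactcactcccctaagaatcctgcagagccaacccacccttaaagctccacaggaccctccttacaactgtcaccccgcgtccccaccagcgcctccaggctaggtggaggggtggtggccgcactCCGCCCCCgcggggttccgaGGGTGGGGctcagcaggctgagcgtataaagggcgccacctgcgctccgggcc
Ache (chr5:137288058-137288253, plus strand): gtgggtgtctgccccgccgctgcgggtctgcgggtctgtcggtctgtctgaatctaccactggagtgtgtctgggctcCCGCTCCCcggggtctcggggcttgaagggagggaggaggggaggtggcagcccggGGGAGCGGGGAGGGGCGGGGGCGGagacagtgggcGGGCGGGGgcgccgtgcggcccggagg
Pdzk1ip1 (chr4:115088458-115088707, plus strand): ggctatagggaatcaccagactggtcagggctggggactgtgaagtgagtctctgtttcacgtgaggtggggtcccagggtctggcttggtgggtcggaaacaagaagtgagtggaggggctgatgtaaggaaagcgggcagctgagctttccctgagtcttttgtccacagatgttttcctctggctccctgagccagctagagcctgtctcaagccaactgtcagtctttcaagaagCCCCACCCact
Prelp (chr1:133921415-133921651, minus strand): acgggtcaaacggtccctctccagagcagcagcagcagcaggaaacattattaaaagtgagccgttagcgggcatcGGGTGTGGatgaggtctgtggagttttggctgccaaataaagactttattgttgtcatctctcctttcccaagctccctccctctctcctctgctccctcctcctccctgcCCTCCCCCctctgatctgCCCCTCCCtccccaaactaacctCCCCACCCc

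None of the 4 windows held a GATA motif, which 26.5% of the 32851 promoters of the same length in the table held. CCNCNCCC matched 2 times at Aqp3, 6 times at Ache (matches that overlap each other were counted one by one), once at Pdzk1ip1 and 4 times at Prelp, against at least one match in 45.9% of all promoters. The Ache window was the richest in G and C of the 4, at 73.6%, against a median of 52.4% over the table. These are descriptions of letters in a short window. They say nothing of whether a factor binds there or further away.

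The genes lie on 4 chromosomes in the GENCODE M21 annotation of GRCm38. Aqp3 (ENSMUSG00000028435.8) spans chr4:41092722-41098183 and Pdzk1ip1 (ENSMUSG00000028716.15) chr4:115088708-115093899, far apart on the same chromosome. Ache (ENSMUSG00000023328.14) spans chr5:137287519-137294466. Crat (ENSMUSG00000026853.15) spans chr2:30400471-30415813, and Prelp (ENSMUSG00000041577.5) chr1:133910304-133921414. Smart-seq2, the full-length poly(A)-primed method used, does not mark the strand, so reads in an overlap of neighbouring genes cannot be told apart. Crat shares 59 bases with Dolpp1 on the opposite strand, and Ache shares 1144 bases with Gm42456, which had 5 counts in all 9 libraries together.

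How multiply matching reads were counted is not stated, and 12975 rows held no count in any library. A gene listed at 0 below may therefore lack transcripts or may have lost its reads in the counting, and the files do not tell these apart. Library totals ranged from 14788962 to 17289307 counts with the mutant, from 11364358 to 13103114 with the wildtype and from 13659747 to 15052013 with the empty vector, so that 3 counts, the limit that a count of 0 allows, correspond to 0.17 to 0.289 CPM, a count scaled by the size of its library. Human GATA1 reads checked only which libraries carried the transgene. It averaged 653 ± 53.9 CPM in mutant libraries and 817 ± 103 CPM in wildtype libraries (SD, n = 3 each), and the 3 empty-vector libraries held 2 counts together. Such counts do not tell mutant from wildtype cDNA, so that part of the labels was not checked. The mutant transgene level was thus 79.8% of the wildtype level. Its part in the differences below was not tested. All 10 erythroid progenitor markers searched passed the filter, with summed levels of 2923 to 3141 CPM in mutant, 3556 to 4022 CPM in wildtype and 2961 to 3225 CPM in empty-vector libraries. The sum hides a split: for wildtype over empty vector 5 were called higher and 3 lower (edgeR adjusted p under 0.05). Over all genes 11.4% were higher and 11.9% lower. The 5 were 4 without any single mutant library, without wildtype replicate 1 or 2 and without empty-vector replicate 1 or 2. They were also 4 with no filter, with the replicate block, with only the compared libraries and with mutant libraries 1 and 2 summed. Tfrc, the largest part of the sum, averaged 940, 1910 and 1073 CPM in mutant, wildtype and empty-vector cells. The 3 lower were Kit (602, 248 and 661 CPM), Gata2 (286, 103 and 327 CPM) and Myb (69, 37 and 82 CPM). Mutant libraries 1 and 2 were closer to each other than any other pair of replicates (chi-square per gene 2.21, against 14.96 to 55.5 for the other pairs). They still differed by more than counting noise and were kept as 2 libraries. All levels below are CPM with TMM-scaled library totals. In a bulk library, fewer cells that express a gene and less of its RNA per cell cannot be told apart.

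Aqp3 had the lowest mutant level relative to the wildtype of the 5 genes, at 18.6%. It had 21.2, 19.8 and 22.0 CPM in the mutant libraries, against 112, 121 and 105 CPM in the wildtype libraries and 7.92, 8.04 and 9.33 CPM in the empty-vector libraries. The 3 groups did not overlap: all mutant libraries were close together a little above the empty vector, and all wildtype libraries were far above both. The means were 21.0 ± 1.13, 112.5 ± 7.66 and 8.43 ± 0.783 CPM in mutant, wildtype and empty-vector cells (SD, n = 3 each). These are 2.49 times the empty-vector level with the mutant and 13.4 times with the wildtype.

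Ache lay above the empty vector with both forms, and its mutant mean was 81.2% of its wildtype mean. Its level was 22.1, 21.8 and 21.6 CPM with the mutant, against 33.2, 22.1 and 25.4 CPM with the wildtype and 8.58, 8.11 and 10.2 CPM in empty-vector cells. The mutant libraries were the most alike of any group for this gene, the wildtype libraries were spread out, and the second wildtype library fell among the mutant ones. The means were 21.8 ± 0.273 CPM in mutant, 26.9 ± 5.68 CPM in wildtype and 8.95 ± 1.08 CPM in empty-vector cells (SD, n = 3 each), or 2.44 and 3.01 times the empty-vector level.

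Crat had the highest read share of the 5 in every group. It had 69.3, 65.1 and 56.4 CPM with the mutant, against 176, 158 and 153 CPM with the wildtype and 31.2, 34.0 and 44.2 CPM in empty-vector cells. Its gap between mutant and empty vector was the narrowest of the 5: the lowest mutant library was 1.28 times the highest empty-vector library, while for the other members that ratio was 2.12 to 7.43. The means were 63.6 ± 6.62 CPM in mutant, 163 ± 11.9 CPM in wildtype and 36.5 ± 6.84 CPM in empty-vector cells (SD, n = 3 each), or 1.74 and 4.46 times the empty-vector level.

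Pdzk1ip1 was a low transcript. It had 2.88, 2.59 and 2.34 CPM with the mutant (51, 43 and 36 counts), against 10.4, 9.72 and 6.94 CPM with the wildtype and 1.03, 0.769 and 0.901 CPM in empty-vector cells (14, 11 and 14 counts). The groups did not overlap, and the third wildtype library was the lowest of its group. The means were 2.6 ± 0.272, 9.02 ± 1.83 and 0.899 ± 0.129 CPM in mutant, wildtype and empty-vector cells (SD, n = 3 each), or 2.9 and 10.04 times the empty-vector level for mutant and wildtype.

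Prelp was nearly absent without GATA1. It had 17, 15 and 8 counts in the mutant libraries (0.96, 0.904 and 0.519 CPM), against 37, 28 and 38 counts in the wildtype libraries (2.96, 2.69 and 3.34 CPM) and 0, 1 and 0 counts in the empty-vector libraries. It passed the filter on low counts only through the wildtype group: with the mutant and empty-vector libraries alone it did not pass. With 40 mutant counts and 103 wildtype counts against 1, the ratio to the empty vector was 35.0 with the mutant (exact 95% interval 5.93 to 1417, counting error only) and 131 with the wildtype (22.9 to 5212). The third mutant library, with 8 counts, was the lowest of the GATA1 libraries.

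**Figure D1:**
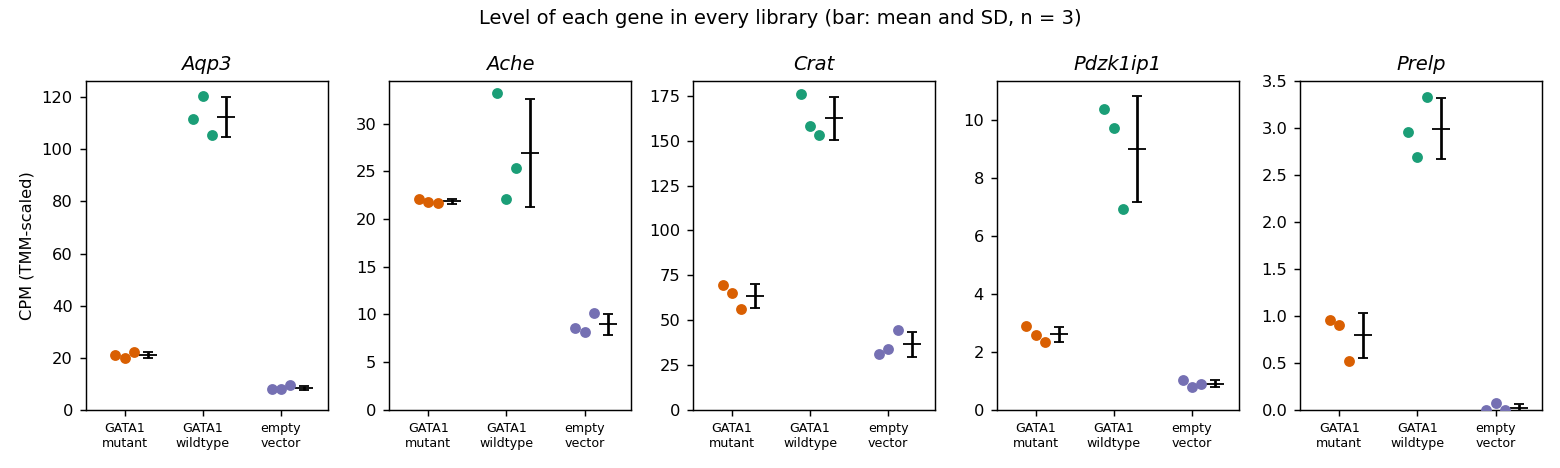
Level of the 5 genes in each of the 9 libraries (points; y axis, TMM-scaled CPM from 0, a separate scale for each gene) in GATA1 mutant, GATA1 wildtype and empty-vector cells, with the mean and SD of 3 libraries beside each group. For 4 genes the mutant points lie between the other groups and nearer the empty vector, while the Ache mutant points (21.6 to 22.1 CPM) reach the lowest wildtype point (22.1 CPM).

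Per kilobase of exon, the order of the members differed between the groups. With the mutant, Crat (11.8 ± 1.23 CPM per kb) and Aqp3 (11.5 ± 0.62) did not differ beyond their spread and were followed by Ache (4.72 ± 0.0591), Pdzk1ip1 (1.46 ± 0.153) and Prelp (0.22 ± 0.0664). With the wildtype, Aqp3 stood first at 61.5 ± 4.19 CPM per kb, then Crat at 30.2 ± 2.21. Ache (5.82 ± 1.23) and Pdzk1ip1 (5.07 ± 1.03) did not differ beyond their spread there, and Prelp was last at 0.829 ± 0.0892. With the empty vector, Crat led at 6.77 ± 1.27 CPM per kb, before Aqp3 (4.61 ± 0.428), Ache (1.94 ± 0.234), Pdzk1ip1 (0.505 ± 0.0725) and Prelp (0.00644 ± 0.0112). All are means ± SD of 3 libraries and levels, not differences.

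The values that chose the members also place them among all genes. All 6 GATA1 libraries lay above all 3 empty-vector libraries for 314 of 9978 genes (3.15%); mutant libraries alone did so for 8.19% of genes and wildtype libraries alone for 15.3%. Calling genes at an adjusted p under 0.05 in edgeR's quasi-likelihood test, 5 of 5 members were higher with the mutant than with the empty vector, where 0.21% of all genes were (21 genes), and 5 of 5 with the wildtype, where 11.4% were. Nothing is read from these counts, since the same contrasts picked the genes. Genes called higher with both forms numbered 13 (0.13%): the 5 members, 6 globin genes, the anion exchanger Slc4a1 and the haem-synthesis enzyme Alas2. Crat and Pdzk1ip1 lay just inside that threshold with the mutant (adjusted p = 0.0403 for each), and the acyltransferase gene Agpat4 lay just outside it (0.0515), at 51.4 CPM with the mutant, 52.9 CPM with the wildtype and 31.3 CPM in empty-vector cells. The count of 21 genes was 10, 8 and 12 without mutant replicates 1, 2 and 3, and 6, 5 and 227 without empty-vector replicates 1, 2 and 3, and the 1137 genes higher with the wildtype were 732 without empty-vector replicate 2.

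The mutant's part of the wildtype rise was taken as the mutant mean minus the empty-vector mean, over the wildtype mean minus the empty-vector mean, on the CPM scale. It was 12.1 ± 0.896% for Aqp3, 71.8 ± 13.2% for Ache, 21.5 ± 4.07% for Crat, 21.0 ± 3.43% for Pdzk1ip1 and 25.9 ± 4.97% for Prelp (± SE by the delta method, n = 3 libraries in each group). For 4 of the genes the mutant therefore reached 12.1 to 25.9% of the rise on this scale, and for Ache it reached most of it. Taking the mutant libraries one at a time against the same group means, the part was 10.9 to 13.04% for Aqp3, 70.6 to 73.5% for Ache, 15.8 to 26.0% for Crat, 17.7 to 24.4% for Pdzk1ip1 and 16.7 to 31.5% for Prelp. Ache stood apart from the other 4 on this scale, and the ranges of Crat, Pdzk1ip1 and Prelp overlapped. On the log2 scale the parts were larger, at 35.2% for Aqp3, 80.9% for Ache, 37.2% for Crat, 46.1% for Pdzk1ip1 and 71.1% for Prelp, whose empty-vector level rests on 1 count.

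On the CPM scale, the 5 members had larger parts than the globin genes called higher with both forms. The part on that scale was 3.83% for Hbb-bs, 6.39% for Hbb-bt, 2.97% for Hbb-bh1, 2.78% for Hbb-y, 7.16% for Hba-a1 and 2.15% for Hba-a2, and 3.47 ± 0.56% for Alas2. Slc4a1, at 12.9 ± 1.34%, was close to Aqp3. The order differed on the log2 scale: there the part was 41.4% for Hbb-bs, 42.9% for Hbb-bh1 and 43.9% for Hbb-y, above Aqp3 (35.2%) and Crat (37.2%), and 30.6% for Hbb-bt, 28.2% for Hba-a1, 33.9% for Hba-a2 and 31.1% for Alas2, below them. Slc4a1 was at 55.7% on the log2 scale, above Aqp3, Crat and Pdzk1ip1 and below Prelp and Ache. In a list of 12 erythroid output genes that includes these 8, all were lower with the mutant than with the wildtype, 8 were higher with the mutant than with the empty vector and 12 with the wildtype. The 8 were 5 without mutant replicate 2, 5 without empty-vector replicate 1 and 4 without empty-vector replicate 2. Over the 426 genes called at least 2-fold higher with the wildtype than with the empty vector, the median part on the CPM scale was 5.72%, with quartiles of 0 and 17.3%. A larger part than Ache was found for 4 of those genes (0.939%), while 150 (35.2%) exceeded Aqp3, 78 (18.3%) Crat, 80 (18.8%) Pdzk1ip1 and 53 (12.4%) Prelp. These ranks are descriptions, because the members were required to rise with the mutant and the 426 genes were not.

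**Figure D2:**
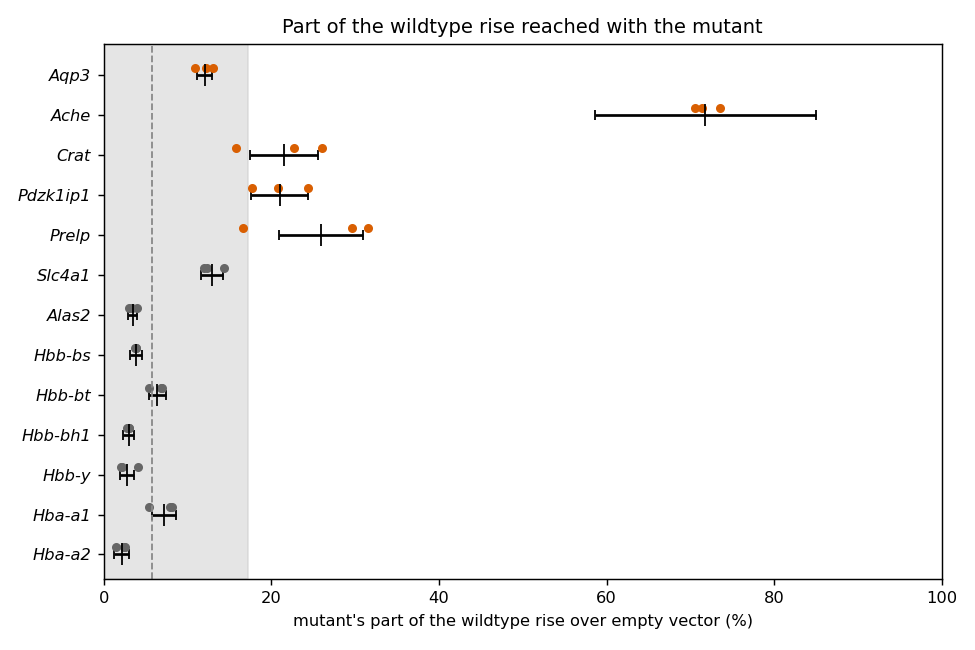
Mutant's part of the wildtype rise over the empty vector (x axis, percent of the CPM difference) for the 5 members (orange) and for 8 erythroid genes called higher with both forms (grey); points are single mutant libraries, bars the value ± SE (3 libraries per group), the shaded band the quartiles and the dashed line the median (5.72%) of the 426 genes called at least 2-fold higher with the wildtype. Ache lies at 71.8%, the other members between 12.1 and 25.9%, and the globins at 2.15 to 7.16%.

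The difference between the GATA1 forms was not used to pick the genes and was tested directly. Of the 4 members that also pass the filter in mutant and empty-vector libraries alone, 3 were lower with the mutant than with the wildtype at an adjusted p under 0.05, where 12.7% of all tested genes were lower and 13.2% higher, and these 3 also had groups that did not overlap (20.9% of all genes in that direction). Aqp3 differed by the largest fold (log2 fold change -2.42, SE 0.126, edgeR adjusted p = 4.7e-08). Crat was at 39.1% of its wildtype level (-1.35, SE 0.144, edgeR adjusted p = 2.6e-05), and Pdzk1ip1 at 28.9% (-1.79, SE 0.217, edgeR adjusted p = 7.9e-05). Each of these 3 differences exceeded the spread between replicates, and each call held in all alternatives run. Prelp was at 26.5% of its wildtype level (-1.89, SE 0.327). For Prelp this is a description, since the wildtype libraries, where it is high, brought it past the filter.

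Ache did not pass the test: its mutant level was 81.2% of the wildtype level, with a log2 fold change of -0.30 (SE 0.166, approximate 95% interval -0.66 to 0.06, edgeR adjusted p = 0.197). The interval leaves room for no difference and for a mutant level somewhat lower than the wildtype. It does not reach the differences seen for Aqp3, Crat and Pdzk1ip1. Its value depended on one wildtype library: without wildtype replicate 1, the highest, the log2 fold change was -0.13, and without wildtype replicate 2, the lowest, it was -0.43, neither of them called (adjusted p = 0.638 and 0.104).

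Each mutant library was also set against the wildtype library of its number, although the labels name no pairing. Aqp3 was at 19.0, 16.4 and 20.9% of the level in the same-numbered wildtype library, Crat at 39.4, 41.2 and 36.7%, Pdzk1ip1 at 27.7, 26.7 and 33.7%, and Prelp at 32.5, 33.5 and 15.6%. Ache was at 66.7, 98.3 and 85.2%, lower than the wildtype library of each number by differing amounts. Over the 6 GATA1 libraries alone, genes called lower numbered 2417 with the number of the replicate as a block and 1412 with no block. Over all 9 libraries they numbered 1001 with the block and 1267 with no block. The calls of Aqp3, Crat, Pdzk1ip1 and Ache were the same in these fits (Ache adjusted p = 0.0641 with the block over 6 libraries). The count of 1267 was 778 without mutant replicate 1 and 779 without mutant replicate 2. The 1313 genes called higher were 694, 791, 758 and 869 without mutant replicates 1 and 2 and wildtype replicates 1 and 2.

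**Figure D3:**
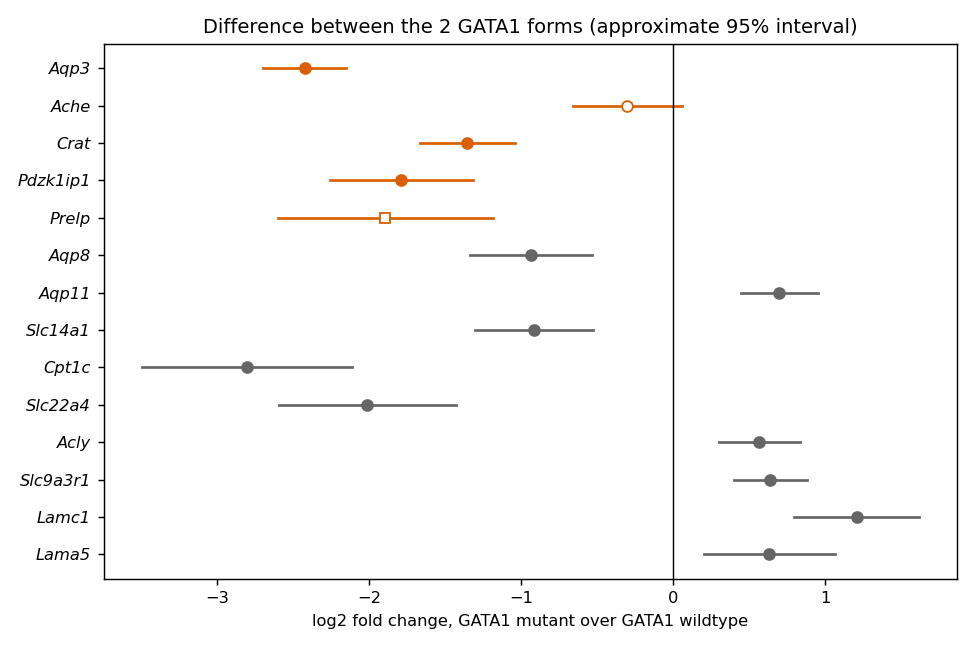
Log2 fold change of GATA1 mutant over GATA1 wildtype (x axis; points, with lines for the approximate 95% interval) for the 5 members (orange) and for named genes of their pathway lists (grey); filled points passed an adjusted p under 0.05, and the open square, Prelp, is a description. Only pathway genes called in this comparison were drawn, so Ache is the one open circle by that choice. It lies at -0.30, while the other members lie between -2.42 and -1.35.

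Whether members changed by unequal amounts was asked within libraries, by comparing the log2 ratio of 2 genes between mutant and wildtype libraries with an exact two-sided permutation test. With 3 libraries against 3 the smallest p is 0.1, so no pair could pass a threshold of 0.05. The groups were fully apart for 8 of 10 pairs of members and for 22 of the 25 pairs examined once Slc4a1, Alas2 and Hbb-bs were added (exact p = 0.1 each, 0.114 after Benjamini-Hochberg adjustment over the 25). The share of apart pairs among other genes was not computed, so these counts are descriptions. Pairs with Prelp entered the counts and the adjustment but are descriptions too, since Prelp passed the filter only through the wildtype group. All 7 pairs that held Ache were apart: the log2 ratio of Ache to Crat was 1.08 higher with the mutant (SE 0.148), that of Ache to Slc4a1 2.56 higher (SE 0.0917) and that of Ache to Hbb-bs 4.22 higher (SE 0.346). Aqp3 over Ache was 2.14 lower with the mutant on the same scale (SE 0.207). The ratios of Aqp3 to Prelp (-0.46, SE 0.348), Pdzk1ip1 to Prelp (0.18, SE 0.331) and Aqp3 to Slc4a1 (0.42, SE 0.196, exact p = 0.2) had overlapping groups.

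Over the 9 libraries, the log2 CPM of every pair of members correlated positively, from r = 0.842 for Aqp3 and Ache to r = 0.989 for Aqp3 and Crat. These coefficients are descriptions that rest on the same 3 groups and libraries. The genes most like Aqp3 by Pearson's r were Alas2 (0.995), Hbb-bs (0.995) and Hbb-bh1 (0.992), and those most like Pdzk1ip1 were Hbb-bh1 (0.997), Hbb-bs (0.995) and Hbb-y (0.989). Crat was most like Klf1 (0.994), an erythroid transcription factor, the red cell pyruvate kinase gene Pklr (0.994) and Pfkfb4 (0.993), a regulator of glycolysis. Klf1 itself had 340 ± 23.0 CPM with the mutant, 614 ± 55.8 CPM with the wildtype and 260 ± 28.6 CPM in empty-vector cells (SD, n = 3 each), a part of 22.4% on the CPM scale and 31.0% on the log2 scale. Prelp was most like Slc4a1 (0.988), the glycophorin gene Gypc (0.965) and Hbb-bh1 (0.965).

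The genes most like Ache were the deubiquitinase gene Usp35 (r = 0.977), Ranbp10 (0.954), a Ran-binding protein gene, and Slc4a1 (0.942), which was also the gene most like Prelp. Usp35 had 0.645 ± 0.0905 CPM with the mutant, 0.84 ± 0.15 CPM with the wildtype and 0.181 ± 0.066 CPM in empty-vector cells, a part of 70.4% on the CPM scale. Its empty-vector mean lies below the 0.193 to 0.22 CPM that 3 counts correspond to there, so its likeness and part rest on few reads. Ranbp10 had 27.1 ± 3.1, 37.2 ± 6.19 and 16.5 ± 1.79 CPM in mutant, wildtype and empty-vector cells (SD, n = 3 each), a part of 51.2% on the CPM scale.

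Other genes of each member's pathway were examined as lists. Of 113 genes in the 5 pathway lists, 40 passed the filter. With the mutant against the empty vector, edgeR called 0 of these 40 (7 at an unadjusted p under 0.05) and DESeq2 called 2. Over all 9978 genes, edgeR called 21 higher and 6 lower, with 1284 at an unadjusted p under 0.05. DESeq2 called 63 higher and 39 lower. With so few calls over all genes, 0 of 40 does not set the lists apart. Without empty-vector replicate 3, edgeR called 6, where 227 of all genes were higher and 610 lower. The median log2 fold changes over all genes were -0.01 for mutant over wildtype, and -0.04 for wildtype over empty vector.

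Among 15 other water, glycerol and urea channel or glycerol metabolism genes, 6 passed the filter and 7 were listed at 0 in every library, among them Aqp1, the main water channel of red cells. For mutant over wildtype 2 were higher and 2 lower (median log2 fold change -0.24), and for wildtype over empty vector 2 were higher and 1 lower (median -0.18). The 2 higher for mutant over wildtype were 1 without any single mutant library, without the first or the second wildtype library and without the second empty-vector library, and the 1 lower for wildtype over empty vector was 2 without empty-vector replicates 1 or 3. The urea transporter gene Slc14a1 averaged 9.04 CPM with the mutant, 17.0 CPM with the wildtype and 6.24 CPM in empty-vector cells (mutant over wildtype -0.91, SE 0.179, edgeR adjusted p = 0.00273; wildtype over empty vector 1.45, SE 0.185, 9.8e-05). Aqp8, a water channel, averaged 3.22, 6.17 and 3.61 CPM in mutant, wildtype and empty-vector cells and was also lower with the mutant than with the wildtype (-0.94, SE 0.184, edgeR adjusted p = 0.00292) and higher with the wildtype than with the empty vector (0.77, SE 0.185, adjusted p = 0.00887). Aqp11, an intracellular aquaporin, went the other way: 61.5 CPM with the mutant, 37.9 CPM with the wildtype and 59.6 CPM in empty-vector cells (mutant over wildtype 0.70, SE 0.117, edgeR adjusted p = 0.000956; wildtype over empty vector -0.65, SE 0.117, 0.00139).

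The acetylcholine system around Ache was described as a list. Of 29 genes for acetylcholine synthesis, transport, anchoring and receptors, 16 were listed at 0 in every library, which may also come from the counting, including the synthesis gene Chat, the related esterase gene Bche, the vesicle carrier Slc18a3 and the choline carrier Slc5a7. The 3 that passed the filter were the receptor subunit gene Chrnb1 and the choline transporter-like genes Slc44a1 and Slc44a2. With all 9 libraries and the filter, none of the 3 was called by edgeR or by DESeq2 in any comparison, with 0 at an unadjusted p under 0.05 for mutant over wildtype, 1 for mutant over empty vector and 1 for wildtype over empty vector. In the fits that follow, 4 genes of the list passed the filter. For mutant over wildtype 1 of 4 was called higher without wildtype replicate 1, empty-vector replicate 1 or empty-vector replicate 3. For wildtype over empty vector 1 of 4 was called lower without wildtype replicate 3. For mutant over empty vector 1 of 4 was called lower without empty-vector replicate 3. Which of the 4 was called is not given here, and it need not be one of the 3 named. With all 9 libraries, the median log2 fold changes of the 3 genes were 0.04 for mutant over wildtype and -0.59 for wildtype over empty vector.

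Of 32 carnitine and acyl-CoA shuttle genes other than Crat, 26 passed the filter. For mutant over wildtype 5 were higher and 2 lower (median 0.13), and for wildtype over empty vector 2 were higher and 8 lower (median -0.22), where 11.9% of all tested genes were lower. The 5 were 3 without mutant replicates 1 or 2 or wildtype replicate 1. The 8 were 2 without wildtype replicate 1, 4 without mutant replicate 1 or empty-vector replicate 2, 5 without mutant replicate 2 or wildtype replicate 3, and 4 with the replicate block in all 9 libraries. The 2 that rose with the wildtype and were lower with the mutant were Cpt1c, a carnitine palmitoyltransferase isoform known from brain, and Slc22a4, a carrier of organic cations. Cpt1c averaged 0.443 CPM with the mutant, 3.13 CPM with the wildtype and 0.566 CPM in empty-vector cells (mutant over wildtype -2.80, SE 0.318, edgeR adjusted p = 4.5e-05; wildtype over empty vector 2.44, SE 0.313, 0.000101). Slc22a4 averaged 0.882, 3.6 and 0.6 CPM in mutant, wildtype and empty-vector cells (mutant over wildtype -2.01, SE 0.269, edgeR adjusted p = 0.000167; wildtype over empty vector 2.57, SE 0.292, 3.8e-05). Acly, which makes acetyl-CoA from citrate in the cytosol, was higher with the mutant than with the wildtype (837, 565 and 851 CPM in mutant, wildtype and empty-vector cells; log2 fold change 0.57, SE 0.123, edgeR adjusted p = 0.00539) and lower with the wildtype than with the empty vector (-0.59, SE 0.123, adjusted p = 0.00389).

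In a list of 9 scaffolds and other partners of Pdzk1ip1, 3 genes passed the filter: Slc9a3r1, Nbr1 and Smad4. For mutant over wildtype 1 was higher and 0 lower (median 0.37), and for wildtype over empty vector 1 was higher and 1 lower (median -0.60). Both medians are the values of Smad4, which was called in neither comparison. Slc9a3r1 is the one PDZ scaffold among the 3. Without wildtype replicate 3, the 1 higher for mutant over wildtype was 2, and so was the 1 lower for wildtype over empty vector. Slc9a3r1, the scaffold NHERF1, averaged 214 CPM with the mutant, 138 CPM with the wildtype and 222 CPM in empty-vector cells; it was higher with the mutant than with the wildtype (0.64, SE 0.11, edgeR adjusted p = 0.00115) and lower with the wildtype than with the empty vector (-0.69, SE 0.11, adjusted p = 0.000582). Pdzk1, the kidney scaffold that gave the gene its name, had 31 counts over the mutant libraries, 0 over the wildtype libraries and 7 over the empty-vector libraries. Nbr1, an autophagy receptor gene, was higher with the wildtype than with the empty vector (78.4 and 55.9 CPM; 0.49, SE 0.156, edgeR adjusted p = 0.0388), a call that was lost in 8 of 16 alternatives. Among these were leaving out mutant replicate 2 (adjusted p = 0.0605), wildtype replicates 1 or 3 (0.136 and 0.0718) and empty-vector replicates 1 or 2 (0.111 and 0.0501).

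Of 28 small leucine-rich proteoglycan and basement membrane genes other than Prelp, 2 passed the filter and 10 were listed at 0 in every library, which may also come from the counting, among them decorin (Dcn), biglycan (Bgn), lumican (Lum) and perlecan (Hspg2). The 2 were laminin chains, and both were higher with the mutant than with the wildtype (median 0.92), while 1 was lower with the wildtype than with the empty vector (median -0.40). Lamc1 averaged 59.1 CPM with the mutant, 25.6 CPM with the wildtype and 46.8 CPM in empty-vector cells (mutant over wildtype 1.21, SE 0.189, edgeR adjusted p = 0.000574; wildtype over empty vector -0.87, SE 0.189, 0.00485). Lama5 averaged 73.6, 47.5 and 44.9 CPM in mutant, wildtype and empty-vector cells (mutant over wildtype 0.63, SE 0.199, edgeR adjusted p = 0.0342), and lost its call in 5 of 17 alternatives, among them leaving out mutant replicates 1 or 3 (adjusted p = 0.11 and 0.0933) and wildtype replicates 1 or 2 (0.0996 and 0.121). Fmod and Optc, which lie beside Prelp, had 0, 1 and 0 and 6, 8 and 2 counts over the 3 libraries of mutant, wildtype and empty-vector cells.

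Markers of other cell types were searched as lists. Of 10 connective tissue markers none passed the filter, 5 were listed at 0 (Col1a1, Col1a2, Pdgfra, Thy1 and Fbn1), and the summed level was at most 0.389 CPM in mutant, 0.176 CPM in wildtype and 0.193 CPM in empty-vector libraries. Of 8 epithelial markers none passed, 5 had no count, and the sum was at most 0.12 CPM. Of 10 muscle and nerve markers 2 passed, with sums of 5.06 to 5.67 CPM in mutant, 2.96 to 4.13 CPM in wildtype and 3.07 to 5.53 CPM in empty-vector libraries. These 2 were Tubb3 and Rapsn, and Rapsn, an acetylcholine receptor clustering gene, averaged 2.37 CPM with the mutant, 0.817 CPM with the wildtype and 2.62 CPM in empty-vector cells (mutant over wildtype 1.57, SE 0.412, edgeR adjusted p = 0.0148). That call was lost without mutant replicate 1 (adjusted p = 0.0555) and without wildtype replicate 1 (0.0734). Megakaryocytes of rodents also carry acetylcholinesterase: of 9 megakaryocyte and platelet markers 6 passed, Gp1bb and Vwf had no count, and the sum was 46.3 to 52.0 CPM in mutant, 30.6 to 35.9 CPM in wildtype and 64.0 to 69.9 CPM in empty-vector libraries. The mast cell list shares Kit with the erythroid progenitor list, and its sum differed between the groups, though its genes did not all move alike. Of its 10 genes 5 passed, Mcpt8 and Tpsb2 had no count, and the sum was 637 to 731 CPM in mutant, 273 to 293 CPM in wildtype and 740 to 834 CPM in empty-vector libraries. Kit made up most of that sum, at 602, 248 and 661 CPM in mutant, wildtype and empty-vector cells. In the same order Il1rl1 averaged 67.0, 27.1 and 99.4 CPM and Cpa3 11.7, 3.87 and 31.4 CPM. Hdc averaged 0.967, 0.587 and 0.73 CPM and Ms4a2 0.14, 0.363 and 1.72 CPM. By edgeR, 3 of the 5 were higher for mutant over wildtype (13.2% of all genes), and neither Hdc nor Ms4a2 was called there. For wildtype over empty vector 4 were lower (11.9% of all genes), or 3 without wildtype replicate 1. Cpa3 and Ms4a2, 2 of the 5, were lower for mutant over empty vector (0.06% of all genes), or 1 without any single mutant library. Of 9 granulocyte and monocyte markers 4 passed, Elane and Ctsg had no count, and the sum was 8.24 to 9.998 CPM, 2.19 to 2.48 CPM and 9.22 to 11.4 CPM in mutant, wildtype and empty-vector libraries. The part of these lists in the members' differences was not tested.

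The members' neighbours on the chromosome were examined as the 3 nearest genes on each side in the RefSeq gene table. Of 30 neighbours 10 passed the filter, none of them around Prelp. No neighbour was called by edgeR or by DESeq2 for mutant over empty vector (3 and 4 at an unadjusted p under 0.05). Over all 9978 genes edgeR called 21 higher and 6 lower there, with 1284 at an unadjusted p under 0.05. Without empty-vector replicate 3, edgeR called 2 of the 10 higher, where 227 of all genes were. With the wildtype 3 were higher than with the empty vector, where 11.4% of all genes were, and 0 lower (2 lower without empty-vector replicate 1). Both called neighbours of Crat moved with it. Fam73b (now Miga2), a mitochondrial fusion gene 2 genes away, averaged 35.5 CPM with the mutant, 60.1 CPM with the wildtype and 31.0 CPM in empty-vector cells (mutant over wildtype -0.76, SE 0.155, edgeR adjusted p = 0.00368; wildtype over empty vector 0.95, SE 0.156, 0.000712). Ppp2r4 (now Ptpa), an activator of protein phosphatase 2A, averaged 541, 707 and 426 CPM in mutant, wildtype and empty-vector cells (wildtype over empty vector 0.73, SE 0.126, edgeR adjusted p = 0.00104). Its mutant over wildtype difference (-0.39, SE 0.126, edgeR adjusted p = 0.0391) lost its call in 9 of 17 alternatives, among them leaving out any mutant library (adjusted p = 0.094, 0.0855 and 0.133 for replicates 1 to 3), wildtype replicates 1 or 2 (0.152 and 0.116) or empty-vector replicate 2 (0.0629). Dolpp1, which overlaps Crat, was not called.

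Beside Pdzk1ip1, the blood transcription factor gene Tal1 averaged 118 CPM with the mutant, 110 CPM with the wildtype and 87.2 CPM in empty-vector cells (wildtype over empty vector 0.34, SE 0.114, edgeR adjusted p = 0.0495), a call that was lost in 11 of 16 alternatives. It was lost without any mutant library (adjusted p = 0.0679, 0.0838 and 0.0673), without wildtype replicates 1 or 2 (0.18 and 0.0578) and without empty-vector replicates 1 or 2 (0.0599 and 0.216). Beside Aqp3, Nol6 (162, 107 and 126 CPM in mutant, wildtype and empty-vector cells) and Ubap2 (253, 166 and 199 CPM) were higher with the mutant than with the wildtype, opposite to Aqp3 (0.60, SE 0.174, and 0.61, SE 0.169; edgeR adjusted p = 0.0248 and 0.0199). They lost their calls in 5 and 4 of 17 alternatives: without mutant replicates 1 or 2 and wildtype replicates 1 or 2 for Nol6 (adjusted p = 0.101, 0.0564, 0.0868 and 0.0801; also with mutant libraries 1 and 2 summed), and without mutant replicates 1 or 3 and wildtype replicates 1 or 2 for Ubap2 (0.0628, 0.0571, 0.0857 and 0.076). The related channel gene Aqp7, also beside Aqp3, had 3 counts, all in wildtype libraries. Beside Ache, Ufsp1 and Srrt were not called in any comparison.

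**Figure D4:**
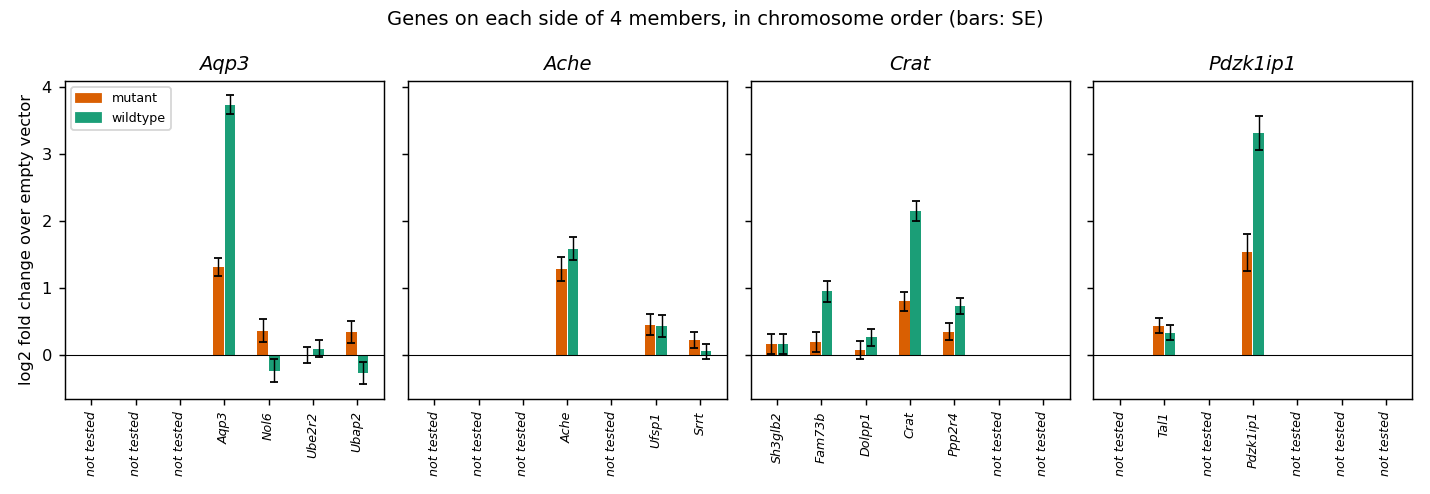
Log2 fold change over the empty vector (y axis; bars ± SE) with the GATA1 mutant (orange) and wildtype (green) for 4 members at position 0 and for their tested neighbours, in chromosome order; neighbours that did not pass the filter on low counts, or have no row, are marked as not tested. The member has the highest bars of its panel, with wildtype values of 3.74 for Aqp3, 1.59 for Ache, 2.15 for Crat and 3.32 for Pdzk1ip1, while the neighbours' bars lie between -0.27 and 0.95.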

How the data were processed

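RNA-seq was read from 9 libraries of G1E cells, 3 each for the GATA1 mutant, GATA1 wildtype and empty vector, grouped by the sample titles. Libraries were made from total RNA by Smart-seq2 with Nextera-based indexing, per the labels' protocols. The authors deposited 1 table of raw counts per gene, with 27998 mouse rows and 1 human GATA1 row; 12975 rows had no count. Reads were aligned with STAR to GRCm38.p4 and hg19, per the submitters' processing notes; for versions, the counting tool and the handling of multi-mapping reads no statement was found (not given in the sources used here), so reads of similar genes, the globins above all, may be split between copies.

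Human GATA1 was left out of the fit and given as CPM of library totals. Counts were tested with edgeR 4.0.16 (R 4.3.3; TMM factors, filterByExpr, glmQLFit and glmQLFTest, 1 mean per group over all 9 libraries, 6 residual degrees of freedom), with Benjamini-Hochberg adjustment over 9978 genes and a threshold of 0.05. SEs were derived from the F-statistic (size of the log2 fold change divided by the root of F) and are approximate, as are the 95% intervals. Log2 CPM used a prior count of 2. Intervals and the floor of 3 counts cover counting error only. P-values reflect only how far these libraries spread. The steps were tested on simulated data.

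The 5 members, the gene lists and the alternatives were chosen with earlier results of these data known. The genes named were the members, up to 3 genes per list with the smallest unadjusted p in mutant against wildtype and wildtype against empty vector, tested neighbours, and the 3 genes most like each member; among them values are given for those called or most alike. Genes listed at 0, Pdzk1, Fmod, Optc, Aqp7, Rapsn and Tubb3 were named after their values were seen. So were the erythroid progenitor and mast cell markers given with values.

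The labels name no pairing of libraries across groups. Deviations from the group means of same-numbered mutant and wildtype libraries correlated at 0.171, 0.286 and 0.533 for numbers 1 to 3 over 9978 genes. Libraries of different numbers were not compared in this way, so these values do not establish a pairing. Deviations of GATA1 and empty-vector libraries of the same number correlated at -0.202 to -0.435, so no pairing was used there. Alternatives were RLE factors, other filters, DESeq2 1.42.0, blocks, the compared libraries only, mutant libraries 1 and 2 summed, each library left out, and for the parts other scales.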

Additional observations from a re-analysis of the deposited data

How the results depend on the processing

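For mutant against wildtype, the direction and the side of the threshold of Aqp3, Ache, Crat and Pdzk1ip1 held in all alternatives run, with log2 fold changes of -2.47 to -2.37 for Aqp3, -0.43 to -0.13 for Ache, -1.43 to -1.27 for Crat and -1.94 to -1.68 for Pdzk1ip1. Prelp, a description, ranged from -2.06 to -1.68 and did not pass the 5 CPM filter. The largest adjusted p of the 3 called members was 0.000838 (Pdzk1ip1), and that of Ache ranged from 0.0641 to 0.638. Counts over all genes were less stable, and the cause was not tested. For mutant against wildtype, genes called higher and lower were 779 and 772 with mutant libraries 1 and 2 summed, and 2323 and 2417 with the replicate block in the 6 GATA1 libraries (an alternative added after the data were seen), where the same 6 libraries with no block gave 1437 and 1412. The block changed no call of a member there. Leaving out 1 library gave 694 to 1581 higher and 778 to 1577 lower. For mutant against empty vector, genes higher and lower were 119 and 296 without a filter, 63 and 39 with DESeq2, 12 and 2 with the replicate block in all 9 libraries, 9 and 2 with the mutant libraries summed, and 5 to 227 and 2 to 610 with 1 library left out. For wildtype against empty vector, leaving out 1 library gave 732 to 1614 higher and 655 to 1641 lower. The members' own calls for mutant against empty vector rest on the values that chose them and are given as a description: 5 were called higher with edgeR and with DESeq2, 2 (Aqp3 and Ache) with the replicate block, with the mutant libraries summed and without mutant replicate 1 or 2, and 1 (Aqp3) without empty-vector replicate 1 or 2.

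The mutant's part moved with the scale. On the log2 scale it was 35.2% for Aqp3, 80.9% for Ache, 37.2% for Crat, 46.1% for Pdzk1ip1 and 71.1% for Prelp. With library totals in place of TMM it was 13.2% for Aqp3 and 80.2% for Ache, and from medians 78.5% for Ache. Leaving out 1 library gave 11.6 to 12.7% for Aqp3, 63.4 to 87.1% for Ache, 19.2 to 24.4% for Crat, 18.6 to 22.9% for Pdzk1ip1 and 23.2 to 30.6% for Prelp. Depth limits Prelp and Pdzk1ip1 most.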

Other observations

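Besides the 13 genes called higher than the empty vector with both forms, 8 genes were called higher with the mutant and not higher with the wildtype. Genes called higher with the mutant ranged from 5 to 227 with 1 library left out, and how far these 8 held there is not given. The eosinophil granule protein gene Prg3 averaged 2.98 CPM with the mutant, 0.771 CPM with the wildtype and 0.38 CPM in empty-vector cells. Cysrt1 averaged 1.98, 0.133 and 0.119 CPM in mutant, wildtype and empty-vector cells, and the phosphate carrier gene Slc34a3 averaged 10.3, 1.42 and 2.64 CPM. The adhesion receptor gene Adgrg5 averaged 10.1 CPM with the mutant, 0.763 CPM with the wildtype and 4.67 CPM in empty-vector cells. Adgrg5 was also called lower with the wildtype than with the empty vector (log2 fold change -2.61, edgeR adjusted p = 1.6e-05). The others were Rnf224, Spon2, Bhlha15 and Ubald1. These values are descriptions, as no test of a difference from the 5 members was run.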
